A study of Mus musculus with 35 samples.

Results

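Mouse ovarian surface epithelial (MOSE) cells at culture passage 28 (p28), the latest passage sampled, were compared with a whole newborn mouse, and 4 of the 35 arrays of the series hold this comparison. They were taken by their titles alone, as the forward arrays d1 and d2, with the cells in Cy5 and the newborn in Cy3, and the reverse arrays r1 and r2, with the dyes exchanged. The p28 cells were a serial culture of the ovarian surface of adult virgin C57BL/6 females, grown with fetal bovine serum, and the labels give them no treatment or genetic change. The study itself reports segmental DNA copy number changes in this culture from passage 18 and a malignant phenotype by passage 23. The reference was total RNA of whole newborn C57BL/6 male mouse, the same on every array, and the other 31 arrays hold the same culture at 8 earlier passages. Every p28 array carried RNA of the same single preparation, so each p-value measures the spread between hybridizations and no spread between cultures, and a culture or labelling batch cannot be told apart from p28.

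The ovarian surface epithelium is a single layer of mesothelium-like cells over the ovary. It keeps the keratins of simple epithelia and the transcription factor Wt1, which marks the coelomic lining and the gonads, and in culture it is known to take on features of both epithelium and connective tissue. A whole newborn holds liver, muscle, blood, skin, cartilage and brain together. A log2 ratio of the cells to the newborn therefore says how a transcript in 1 cell type stood against the average of a body, and in such bulk RNA fewer cells of a type and less RNA per cell cannot be told apart.

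The arrays carried 15254 cDNA clones, of which 10098 had a gene symbol, for 7389 genes. On each p28 array 98.2% to 98.3% of spots were well above background in both channels, that is more than 1.5 times the local background, and the median signal was 1034 to 1178.5 fluorescence units for the cells and 1141 to 1474 for the newborn. Arrays of one dye orientation correlated more closely (r = 0.705 for d1 and d2, 0.681 for r1 and r2, across clones) than arrays of opposite orientation (0.512 to 0.566). Values below are log2(p28 cells/newborn) and are given for d1, d2, r1 and r2 in that order, with the SD over the 4 arrays. A gene is the mean of its clones, and it was called when a clone had an adjusted p under 0.01 in limma, the lowest p of its clones being given.

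In all, 469 clones were higher in p28 cells (3.07% of those tested) and 670 were lower (4.39%), and 4086 had an unadjusted p under 0.05. Each of the 1139 called clones had one sign on all 4 arrays. By gene, 322 were higher (4.36%), 468 were lower (6.33%) and 5 had clones called both ways, while the median log2 ratio of all 7389 genes was 0.01. Of the genes called higher, 127 were at least 2-fold and 10 at least 4-fold above the newborn, whereas of the genes called lower 210 were at least 2-fold and 48 at least 4-fold below it.

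Wt1, on chromosome 2, was the highest gene in p28 cells. Its ratios were 2.73, 2.81, 3.17 and 4.00, a mean of 3.18 ± 0.58 (SD, 4 arrays) or 9.03-fold (adjusted p = 1.23e-05), and the signal on its spot averaged 7714 units in the p28 cell channel against 582 in the newborn channel. All 4 arrays stood high, r2 most of all. Msln, which encodes the mesothelial surface protein mesothelin, had 1.67, 2.11, 2.68 and 2.07 (mean 2.13 ± 0.42, 4.39-fold, adjusted p = 4.38e-05). Gata4, a transcription factor of gonadal somatic cells, had 1.63, 1.68, 1.32 and 0.75 (mean 1.35, adjusted p = 7.57e-04).

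Of the 18 measured markers of ovarian surface and mesothelium, 11 were higher (61.1%, against 4.36% of all genes) and 1 was lower (5.56%, against 6.33%), with a median of 1.07 ± 0.12. The number higher was 8 in a fit of all 35 arrays, 9 without d1 or r1, and 10 without d2 or r2. The 4 measured keratins were all higher. Krt19 had 2.06, 1.63, 2.07 and 1.16 (mean 1.73, adjusted p = 1.76e-04), Krt7 averaged 1.47, Krt18 1.24 over 2 clones and Krt8 0.90 over 3 clones. These 4 form intermediate filaments of simple epithelia, and no array put one of them below the newborn. The others that were higher were Aldh1a1 (mean 1.52), a retinaldehyde dehydrogenase, Podxl (1.39), an anti-adhesive sialomucin of mesothelium and podocytes, and the zinc finger factors Bnc1 (1.28) and Bnc2 (0.78). The call of Krt8 was lost without d1, d2 or r1 and that of Bnc2 without d1, r1 or r2. Nr2f2, an orphan nuclear receptor, was the single marker that was lower, with -1.95, -1.52, -1.24 and -1.38 (mean -1.52, adjusted p = 1.45e-04). The remaining 6 did not pass the test, with means of 0.54 for Aldh1a2, 0.51 for Tgm2, 0.36 for Cdh2, 0.12 for Cav1, 0.09 for Gas6 and -0.12 for Nr2f1.

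**Figure D1:**
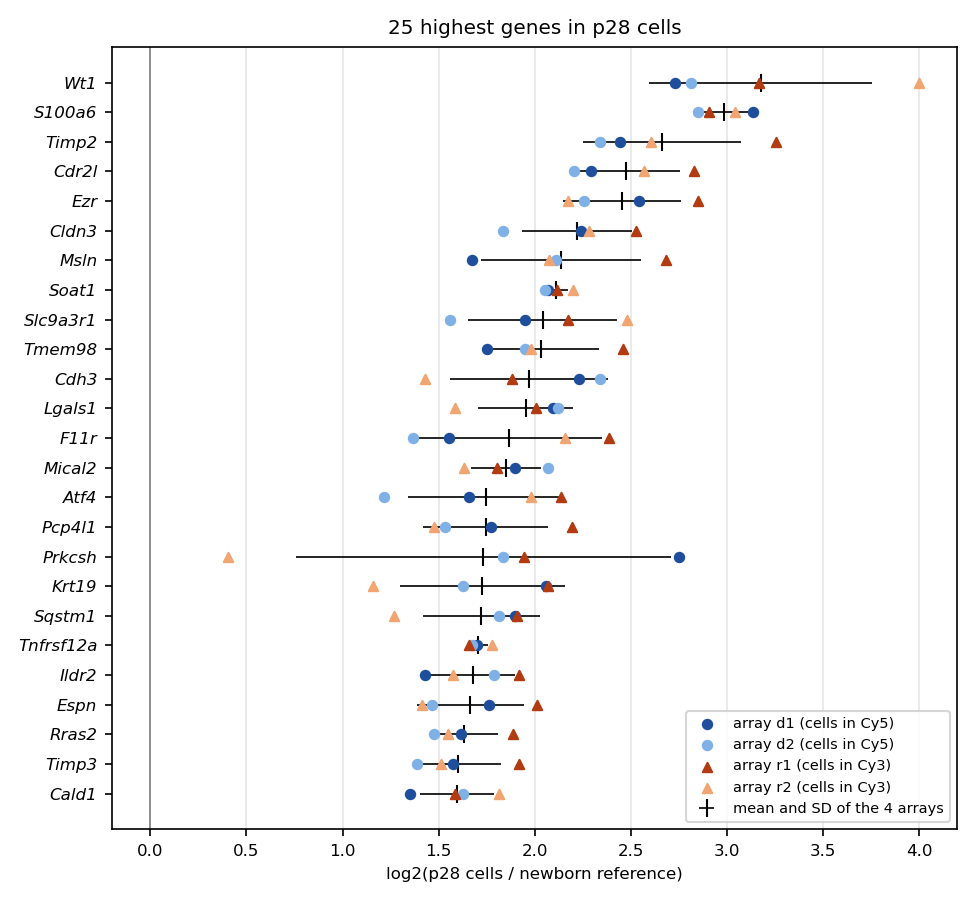
Log2 ratio of p28 cells to the newborn reference (x axis) on each of the 4 arrays for the 25 highest genes named by the rule, circles for arrays with the cells in Cy5 and triangles for arrays with the cells in Cy3, with the mean and SD over the arrays as a bar. Wt1 leads at a mean of 3.18, and the wide bar of Prkcsh comes from a clone that was not above background in either channel.

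Of 66 measured genes for actin, focal adhesion and contractility, 19 were higher in p28 cells (28.8%, against 4.36% of all genes) and 5 lower (7.58%, against 6.33%), with a median of 0.22. Without d1, d2 or r1, 12 were higher, and without d2 or r1, 3 were lower. Ezr, the ezrin that ties membrane proteins to actin in microvilli, was among the 25 highest genes and had 2.54, 2.25, 2.85 and 2.17 (mean 2.45 ± 0.31, adjusted p = 4.77e-06), and each of its 4 clones was higher, between 2.12 and 2.75. Its binding partner Slc9a3r1 averaged 2.04 and the actin bundler Espn 1.66, while the ezrin relative Msn had a mean of 0.93. All of these were above the newborn on every array. Prkcsh, a glucosidase subunit, also ranks among the highest genes in the plot, but its called clone was marked as not found and was not well above background in either channel on all 4 arrays, so no fold is given, and its other clone had a mean of 0.26. S100a6, a calcium-binding protein, was the highest of the actin list with 3.13, 2.85, 2.90 and 3.04 (mean 2.98, 7.90-fold, adjusted p = 5.48e-07). Lgals1, the secreted lectin galectin 1, averaged 1.95 over 3 clones, the caldesmon gene Cald1 1.59, the integrin subunit Itga3 1.33 and the focal adhesion protein Zyx 1.24. The tropomyosin of slow muscle and fibroblasts, Tpm2, ran the other way at -2.69.

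Junction genes split in p28 cells. Among 17 measured epithelial junction and related genes, 4 were higher (23.5%, against 4.36% of all genes) and 3 lower (17.6%, against 6.33%), with a median of -0.23, and 5 were lower in a fit of all 35 arrays. Cldn3, a tight junction claudin, had 2.24, 1.83, 2.53 and 2.28 (mean 2.22 ± 0.29, adjusted p = 1.19e-05), the P-cadherin gene Cdh3 had 2.23, 2.34, 1.88 and 1.43 (mean 1.97, adjusted p = 6.87e-05), F11r (junctional adhesion molecule A) averaged 1.87 and the lipolysis-stimulated receptor Lsr of tricellular junctions 1.59. These were high on all 4 arrays. By contrast the desmosomal plaque gene Dsp had -1.56, -2.35, -2.21 and -2.38 (mean -2.12, adjusted p = 3.46e-05), Epcam had -1.51, -1.33, -1.68 and -1.30 (mean -1.45) and the epithelial splicing regulator Esrp1 averaged -0.73. E-cadherin, Cdh1, did not pass the test at -0.20, -0.16, -0.69 and -0.57 (mean -0.40 over 2 clones). Levels of separate genes on these arrays are not on a common scale, so no order of the cadherins within the cells can be given.

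Of 11 measured mesenchymal genes 1 was higher and 1 lower in p28 cells, 9.09% each way against 4.36% and 6.33% of all genes, with a median of -0.22. With so few members, these counts are no result about the list, and up to 4 were lower under the alternatives. Fn1, which encodes fibronectin, had 1.38, 0.87, 1.67 and 1.80 (mean 1.43, adjusted p = 4.82e-04), a call lost with one loess curve per array. Fstl1, a secreted follistatin-like protein, had -1.84, -1.59, -1.03 and -1.24 (mean -1.42, adjusted p = 3.38e-04). The vimentin gene Vim averaged 0.32, Mmp2 -0.25, Pdgfrb -0.11 and Pdgfra -0.65, none past the test. Of 10 measured granulosa and steroid cell genes 2 were higher and 1 lower, against 4.36% and 6.33% of all genes. Their median was -0.01, and these counts are likewise no result about so short a list. Amhr2, the receptor of anti-Müllerian hormone, was higher (1.29, 1.25, 1.89 and 1.48, mean 1.48 over 2 clones, adjusted p = 8.29e-05). Nr5a1, a factor of steroid-producing cells, was also higher (1.27, 1.09, 0.84 and 0.76, adjusted p = 0.00108). Hsd3b1 was lower (-0.84), and the granulosa factor Foxl2 (-0.01), the cholesterol transporter Star (0.08) and the side-chain cleavage enzyme Cyp11a1 (0.00) had means near 0 and did not pass the test.

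The lowest transcripts in p28 cells were those of newborn tissues. Alb, the serum albumin of hepatocytes, had -5.03, -4.84, -5.74 and -5.30 (mean -5.23 ± 0.39, adjusted p = 1.54e-07), with a mean signal of 1126 units in the p28 cell channel and 59659 in the newborn channel. That is 37.4-fold more in the newborn. All 10 measured liver and plasma protein genes were lower (100%, against 6.33% of all genes), with a median of -2.95. After albumin the lowest were Apoa1 (-4.51), Apoa4 (-4.48), the vitamin D-binding protein gene Gc (-3.15) and Ttr (-3.08). The least low was Itih1 at -0.96. Skeletal and heart muscle gave 5 lower of 7 (71.4%, against 6.33% of all genes). They were led by the fast myosin light chain Mylpf with -5.10, -4.67, -4.93 and -4.27 (adjusted p = 1.79e-07), the sarcomeric actinin Actn2 (-3.10) and nebulin, Neb (-2.78).

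Blood followed the same pattern. Hbb-b1, adult beta globin, had -5.08, -5.13, -4.90 and -4.68 over 3 clones (adjusted p = 7.85e-08), Hba-a2 averaged -4.33 over 4 clones and Hba-a1 -4.16 over 12 clones, each of them called lower, though its clones ranged over -4.90 to -1.20. The globin paralogs are close in sequence and cross-hybridization between them was not tested. Of 11 measured erythroid genes 8 were lower (72.7%, against 6.33% of all genes), with a median of -1.27 ± 0.44. Among them were the embryonic globins Hbb-y (-1.16 over 4 clones) and Hba-x (-1.23) and the globin chaperone Ahsp (-1.93). The anion exchanger Slc4a1 (-1.70, 1 clone of 2 called) and the heme enzyme Alas2 (-1.27) were also lower. Gata1, Ermap and Car1 did not pass, at 0.04, -0.13 and -0.28. Of 11 leukocyte genes 7 were lower (63.6%, against 6.33% of all genes) and 0 higher (0%, against 4.36%), with a median of -0.67. Without d1, d2 or r1, 4 were lower. Lysozyme, Lyz2, was at -1.84 and the macrophage complement genes C1qa at -0.67 and C1qb at -0.72. Of 32 listed skin genes only 4 were measured, S100a9 (-2.38), Perp (-2.07), Sfn (-1.25) and Lgals7 (-1.10), none of them a keratin. All 4 were lower (100%, against 6.33% of all genes, median -1.66), which describes these genes and not skin as a whole. Against 6.33% of all genes, neural genes were lower in 6 of 14 (42.9%, median -0.53, Gap43 lowest at -1.58). Cartilage and bone genes were lower in 4 of 6 (66.7%, 2 genes without d1, Col2a1 at -3.43) and endothelial genes in 2 of 5 (40.0%). Of the endothelial genes Pecam1 was at -1.43, Cdh5 at -1.01 and Esam was higher at 0.79, a call lost without d1, r1 or r2.

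**Figure D2:**
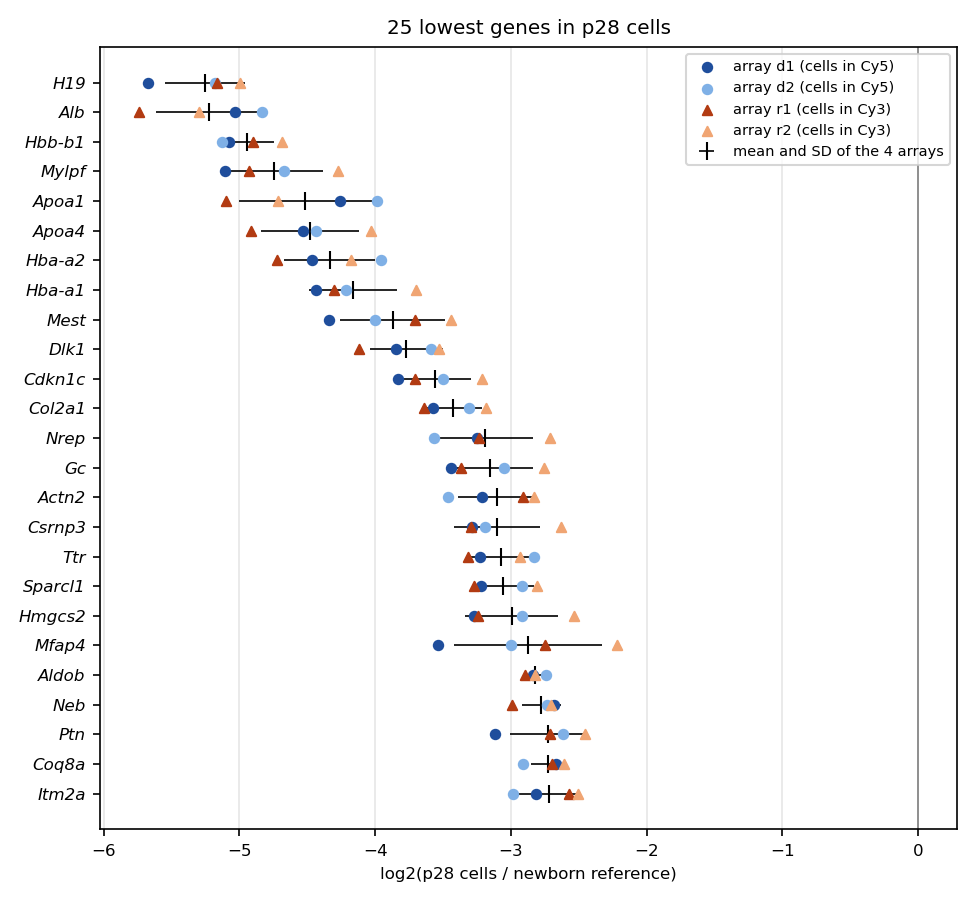
Log2 ratio of p28 cells to the newborn reference (x axis) on each of the 4 arrays for the 25 lowest genes named by the rule, drawn as for the highest genes. H19 and Alb lie near -5 and no point of the 25 genes lies above -2.22, the value of Mfap4 on r2.

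Spots named as empty wells also gave signal. The 100 spots that the files name EmptyWell had a median signal of 515 units in the p28 cell channel and 518 in the newborn channel, whereas the 128 spots named Empty were listed at 0 in both channels. Of the 25 lowest genes, 4 had a p28 cell signal under that median and 25 had one under the 95th percentile of the EmptyWell spots (3317 units), while none had a newborn signal under the newborn channel's percentile. Whether this signal limits how low the ratios could fall was not tested.

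H19, the imprinted noncoding RNA expressed from the maternal allele and abundant in fetal tissue, was the lowest named gene. It had -5.68, -5.18, -5.17 and -4.99 (mean -5.25 ± 0.29, adjusted p = 7.85e-08), and all 6 of its clones were lower, 38.2-fold less than in the newborn. It stood in a group. Of 22 measured imprinted and IGF axis genes 15 were lower (68.2%, against 6.33% of all genes) and 0 higher (0%, against 4.36%). Their median was -1.08 ± 0.34. Mest, a paternally expressed hydrolase, had -4.34, -4.00, -3.70 and -3.44 (adjusted p = 6.31e-07), Dlk1, a Notch ligand relative of progenitor cells, had -3.85, -3.58, -4.12 and -3.53 (adjusted p = 3.08e-07) and Cdkn1c, the imprinted inhibitor of cyclin-dependent kinases, had -3.83, -3.50, -3.70 and -3.21 (adjusted p = 4.62e-07). They were low on every array. Their mean signal was 589 units (Mest), 1264 (Dlk1) and 495 (Cdkn1c) in the p28 cell channel, against 11930, 21367 and 8035 in the newborn channel. That of Cdkn1c in the p28 cells was under the EmptyWell median.

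Behind them came the zinc finger factor Plagl1 (-2.67), Ndn (-2.09), the receptor adaptor Grb10 (-1.97), Gnas (-1.44, 1 clone of 2), Peg3 (-1.09, 1 clone of 2) and Peg10 (-0.94, 2 clones of 3). Among the growth factors and their carriers, Igf1 was at -1.43 over 2 clones, Igfbp4 at -1.56, Igfbp5 at -0.88 and the clearance receptor Igf2r at -0.84. The calls of the last pair were lost without d1 or d2, and that of Igfbp5 also without r1. The 2 clones of Igf2, the fetal growth factor next to H19, disagreed. One had -3.23, -2.31, -2.75 and -1.57 and was well above background in the p28 cell channel on only 2 arrays. The other had 0.17, 0.26, -0.04 and 0.997 and did not pass the test. The first clone put Igf2 among the 15 genes counted lower. Without poor spots, 14 of the 22 were lower and 1 higher. The 7 members not called were Impact (0.73), Sgce (0.32), Phlda2 (0.03), Igf1r (-0.25), Igfbp3 (-0.44), Usp29 (-0.45) and the proteoglycan gene Dcn (0.08).

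Xist and the Y chromosome set the female cells apart from the male reference. Xist, the RNA that coats the inactive X, had 1.22, 1.32, 1.48 and 2.19 (mean 1.55 ± 0.44, adjusted p = 3.70e-04). Eif2s3y, on the Y chromosome, had -1.22, -0.997, -1.17 and -0.96 (mean -1.09 ± 0.13, adjusted p = 3.69e-04), and Ddx3y averaged -1.08 over 2 clones (adjusted p = 0.00100). All 4 arrays put Xist above the newborn in these female cells and both Y chromosome genes below the male newborn. The Y chromosome clones had a mean signal of 1239 units (Eif2s3y) and 1062 units (Ddx3y) in the p28 cell channel against 2550 and 2438 in the newborn channel. Cross-hybridization with the X-linked paralogs of these genes was not tested.

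**Figure D3:**
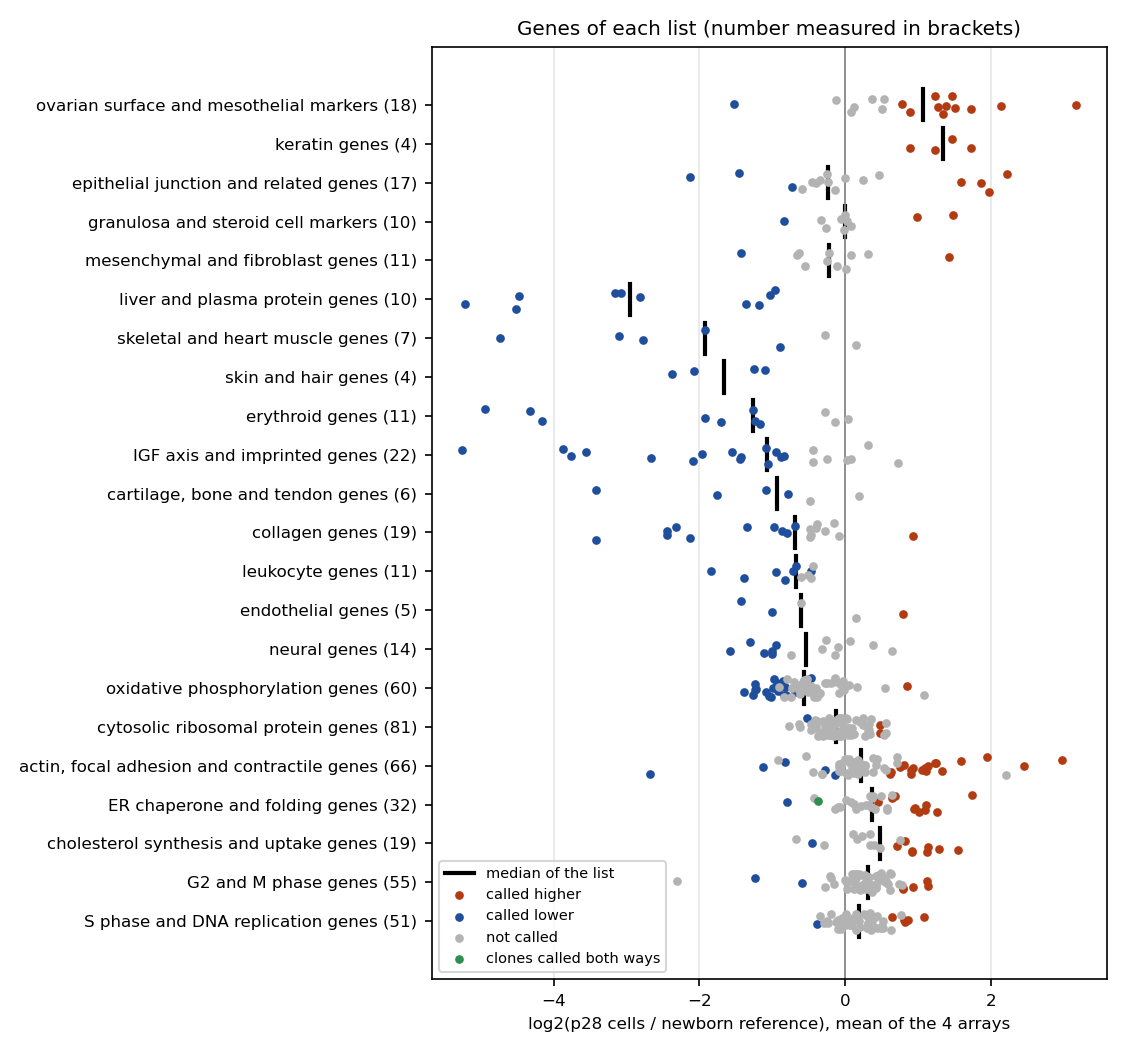
Log2 ratio of p28 cells to the newborn reference (x axis, mean of the 4 arrays) for each measured gene of 22 lists, coloured by call, with the list median as a black bar and the number of measured genes in brackets. Medians run from -2.95 for liver genes to 1.35 for the 4 keratins, and the ER and cholesterol lists lie to the right of 0.

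Matrix genes were mostly below the newborn. Of 19 measured collagens 10 were lower (52.6%, against 6.33% of all genes) and 1 higher (5.26%, against 4.36%), with a median of -0.68 ± 0.19. Col1a1, the main collagen of bone and skin, had -2.80, -2.73, -2.07 and -2.18 (adjusted p = 1.29e-05), Col5a1 averaged -2.45, Col6a2 -2.32 and Col3a1 -2.13 over 4 clones, 3 of them called. The basement membrane chain Col4a5 was the exception at 0.93, and Mfap4, a microfibril protein, was lower at -2.87. Timp2 and Timp3, inhibitors of matrix proteases, were higher. Timp2 had 2.44, 2.34, 3.25 and 2.61 (mean 2.66, 6.32-fold, adjusted p = 1.01e-05) and Timp3 averaged 1.60 over 2 clones, and the cysteine protease Ctsl was higher at 1.23, also over 2 clones. Of 20 secreted proteases and inhibitors 5 were higher (25.0%, against 4.36% of all genes) and 2 lower (10.0%, against 6.33%). With any 1 array left out, 3 were higher. Those lower were the thrombin inhibitor Serpine2 (-1.42) and the sheddase Adam10 (-0.999).

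Of the cholesterol genes, 42.1% were higher in p28 cells, against 4.36% of all genes. The pathway builds cholesterol from acetyl-CoA. Of 19 measured genes 8 were higher and 1 lower (median 0.48 ± 0.17), and 5 were higher without d1, d2 or r1. In pathway order they included the thiolase Acat2 (0.69, 0.85, 1.17 and 1.86), the isopentenyl isomerase Idi1 (1.71, 1.88, 1.32 and 1.26), the squalene synthase Fdft1 (mean 0.82), the epoxidase Sqle (1.13), the cyclase Lss (0.92) and the demethylating oxidase Msmo1 (1.29, 1 clone of 2 called). These 6 were above the newborn on every array. Npc1, which exports cholesterol from lysosomes, was lower at -0.46. Outside the list and its counts, Soat1, which esterifies cholesterol for storage, was among the 10 highest genes. It had 2.07, 2.05, 2.12 and 2.20 over 2 clones (adjusted p = 3.38e-05).

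**Figure D4:**
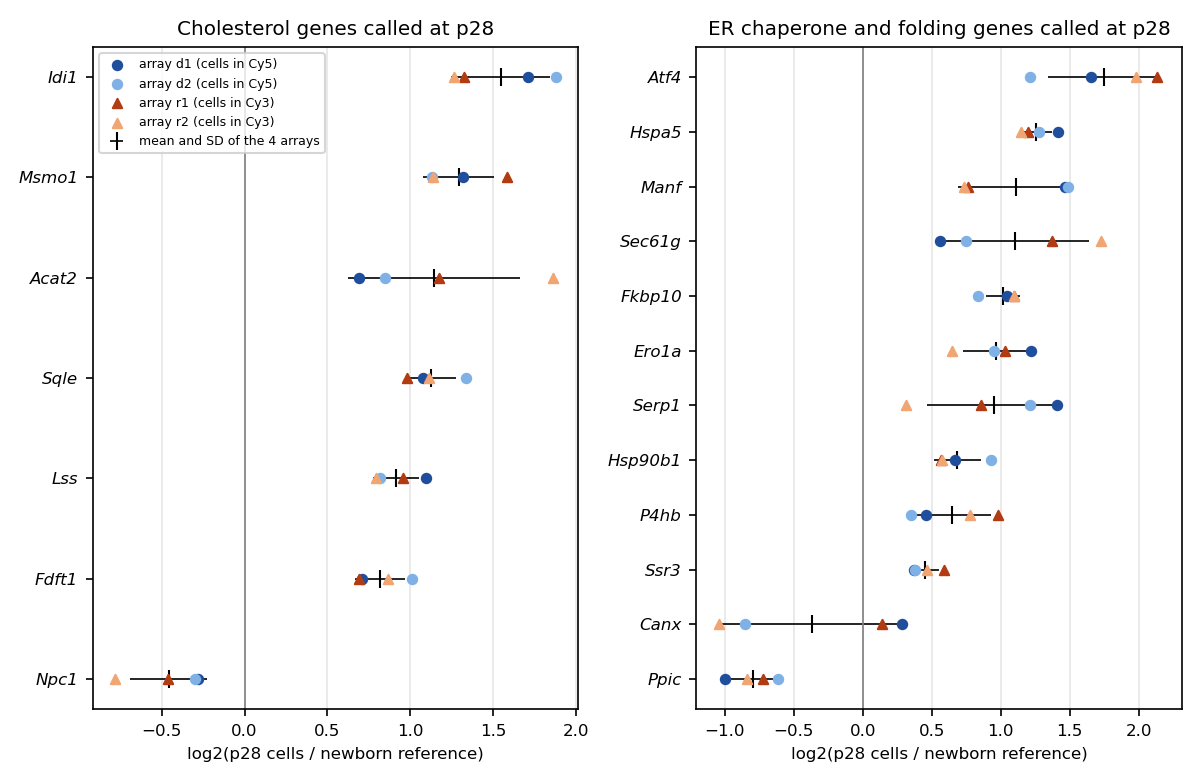
Log2 ratio of p28 cells to the newborn reference (x axis) on each of the 4 arrays for 7 called genes of the cholesterol list (left) and every called gene of the ER chaperone and folding list (right), with mean and SD. The 6 higher cholesterol genes drawn and the 10 higher ER genes lie right of 0 on all 4 arrays, and the points of Canx, whose clones were called both ways, fall on both sides.

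Genes of protein folding in the endoplasmic reticulum (ER) were higher in 10 of 32 (31.2%, against 4.36% of all genes), lower in 1, and called both ways in Canx (median 0.38 ± 0.03). Without r1, 6 were higher. Atf4, a transcription factor of the stress response, had 1.66, 1.21, 2.13 and 1.98 (mean 1.75, adjusted p = 1.38e-04). Hspa5, the chaperone BiP, had 1.41, 1.28, 1.20 and 1.14 over 3 clones, all called (adjusted p = 8.45e-05), and Manf, a secreted ER stress factor, averaged 1.11. The others were the translocon subunit Sec61g (1.10), Fkbp10 (1.02), the oxidase Ero1a (0.96), Serp1 (0.95), the chaperone Hsp90b1 (0.69), the disulfide isomerase P4hb (0.64) and Ssr3 (0.45). The cyclophilin gene Ppic was lower at -0.79.

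Hspa5 and other ER chaperone genes are known to carry the ER stress response element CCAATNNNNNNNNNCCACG in their promoters. It was searched on both strands in the 250 bases before the start of each gene (RefSeq, GRCm38.p6), where the shorter CCAAT box lies inside it. Of the 24 measured ER genes with a promoter in the table, 6 held it, against 0.130% of all 27025 genes. Of these, 4 are shown, chosen because their calls differed: Hspa5 and Hsp90b1 were higher, Canx was called both ways, and Pdia6 (0.35), Dnajc3 (0.29) and Creld2 (0.08) did not pass the test. Each stretch runs 5′ to 3′ on the gene's strand with the element in capitals, on either strand.
Hspa5 (chr2:34772005-34772063, plus strand, element starting 65 bases before the start): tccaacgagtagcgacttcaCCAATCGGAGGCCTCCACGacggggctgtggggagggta
Hsp90b1 (chr10:86705513-86705676, minus strand, elements starting 212 and 107 bases before the start): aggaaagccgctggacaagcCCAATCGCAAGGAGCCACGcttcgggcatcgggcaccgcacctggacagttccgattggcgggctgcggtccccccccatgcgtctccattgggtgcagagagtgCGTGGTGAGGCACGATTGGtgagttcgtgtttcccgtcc
Canx (chr11:50325780-50325838, minus strand, element starting 145 bases before the start): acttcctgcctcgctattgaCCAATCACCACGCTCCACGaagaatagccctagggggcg
Pdia6 (chr12:17266471-17266529, plus strand, element starting 98 bases before the start): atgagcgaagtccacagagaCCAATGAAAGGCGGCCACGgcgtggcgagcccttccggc

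Of 55 measured G2 and M phase genes 5 were higher in p28 cells (9.09%, against 4.36% of all genes) and 2 lower (3.64%, against 6.33%), with a median of 0.31 ± 0.08 and 48 above 0. The number higher rested on the setting, with 17 under a dye term, 15 in a fit of all 35 arrays, 14 without poor spots, 13 in the deposited table and 3 without r2. Those higher were Ube2c (1.31, 0.87, 1.12 and 1.27, adjusted p = 3.92e-04), a ubiquitin enzyme of the anaphase complex, Anln (1.12), Cks1b (0.94), Ccnb2 (0.79) and Top2a (0.79). Cks2 was lower at -1.23 and Cdc23 at -0.59. S phase genes gave 5 higher (9.80%, against 4.36% of all genes) and 1 lower (1.96%, against 6.33%) of 51, with a median of 0.19. With any 1 array left out, 2 of the 51 were higher. Of 81 measured cytosolic ribosomal protein genes 2 were higher (2.47%, against 4.36% of all genes) and 1 lower (1.23%, against 6.33%), with a median of -0.13. Rps6 (0.48, 1 clone of 4) and Rack1 (0.48) were higher and Rps24 (-0.53) was lower.

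Of 60 measured nuclear genes of the respiratory chain and ATP synthase, 19 were lower in p28 cells (31.7%, against 6.33% of all genes) and 1 higher (1.67%, against 4.36%), with a median of -0.57 ± 0.23. The number lower was 8 without d1, 10 without d2 and 32 under a dye term. Uqcrc2, a core subunit of complex III, had -1.55, -1.56, -1.32 and -1.15 over 2 clones (adjusted p = 1.18e-04). Sdhb of complex II averaged -1.27, Uqcrc1 -1.24, cytochrome c, Cycs, -1.23 and Cox4i1 of complex IV -1.09 over 3 clones. These were low on every array, and Ndufb11 was the single one higher, at 0.85. The 28 clones described as mitochondrially encoded subunits had a median of -0.10. Of these clones 4 were lower and 0 higher, against 4.39% and 3.07% of all clones. The group was chosen after the list values were seen.

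Redox genes went both ways. Of 24 measured, 7 were higher (29.2%, against 4.36% of all genes) and 4 lower (16.7%, against 6.33%), and 4 were higher without d1. The autophagy adaptor Sqstm1 (1.90, 1.82, 1.91 and 1.27, adjusted p = 7.01e-05), Txnrd1 (1.03), the transcription factor Nfe2l2 (0.91), Prdx1 (0.90) and Hmox1 (0.84) were higher. The extracellular peroxidase Gpx3 (-2.78, -2.93, -2.31 and -2.23), Mt2 (-2.23, -1.40, -2.24 and -1.91), catalase, Cat (-1.41), and Mt1 (-1.11) were lower. Of 23 interferon and antigen presentation genes 4 were lower (17.4%, against 6.33% of all genes) and 1 higher (4.35%, against 4.36%). Complement C3 was lowest with -3.15, -3.30, -2.02 and -1.10. The forward arrays of C3 lay below the reverse ones, and all 4 were below the newborn.

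Of 42 measured oncogene and tumour suppressor genes 3 were higher in p28 cells (7.14%, against 4.36% of all genes) and 9 lower (21.4%, against 6.33%), with a median of 0.01. Those higher include Hs6st2, which the study had already reported as up-regulated through p28 in these same data. Their number is therefore no independent result. The number lower was 4 without d1 or d2, and 5 without r1 or r2 or with the replicate number as a block. Hs6st2, a heparan sulfate sulfotransferase on the X chromosome, was higher with 0.92, 0.75, 1.60 and 1.19 over 2 clones (adjusted p = 9.25e-04), Hmga2 averaged 0.78, and Hmga1 had 0.64, 0.63, 0.76 and 0.34 without passing the test (adjusted p = 0.0126). The immediate early factor Fos was lower at -1.86. The nuclear noncoding RNA Malat1 was lower with -1.31, -1.06, -0.76 and -0.93, 2 of 3 clones called, while its neighbour Neat1 (-0.45) and the splicing factor Sfpq (-0.13 over 6 clones) did not pass.

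Set against the other 8 passages, p28 entered a limma fit as 1 value, assumed to vary as the other passages do, so a clone that was not called may still differ. This fit on 1 value per passage, all of which share the newborn reference, called 1 of 15254 clones at an adjusted p under 0.05 (0.00656%), and 738 had an unadjusted p under 0.05. The called clone was Itgb5, an integrin subunit, with 4.32, 4.01, 0.14 and 0.35 at p28 (mean 2.20) against a mean of 0.03 for the other 8 passages (difference 2.17, adjusted p = 0.0122). Its 2 forward arrays were high and its 2 reverse arrays were not. The spot was marked as not found on all 4 arrays, and its mean signal was 8 units for the cells and -2 for the newborn.

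The plot of passage means shows where p28 lay for genes described above, with values that share the reference on every array. Wt1 was at 3.18 at p28 against 5.03 at p2, and within the range of the other passages, 1.93 to 5.76. Fn1 was at 1.43 at p28 against -2.82 at p2, with the others at -3.96 to 1.49. Against the other passages the fit gave an adjusted p of 0.98 for both.

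**Figure D5:**
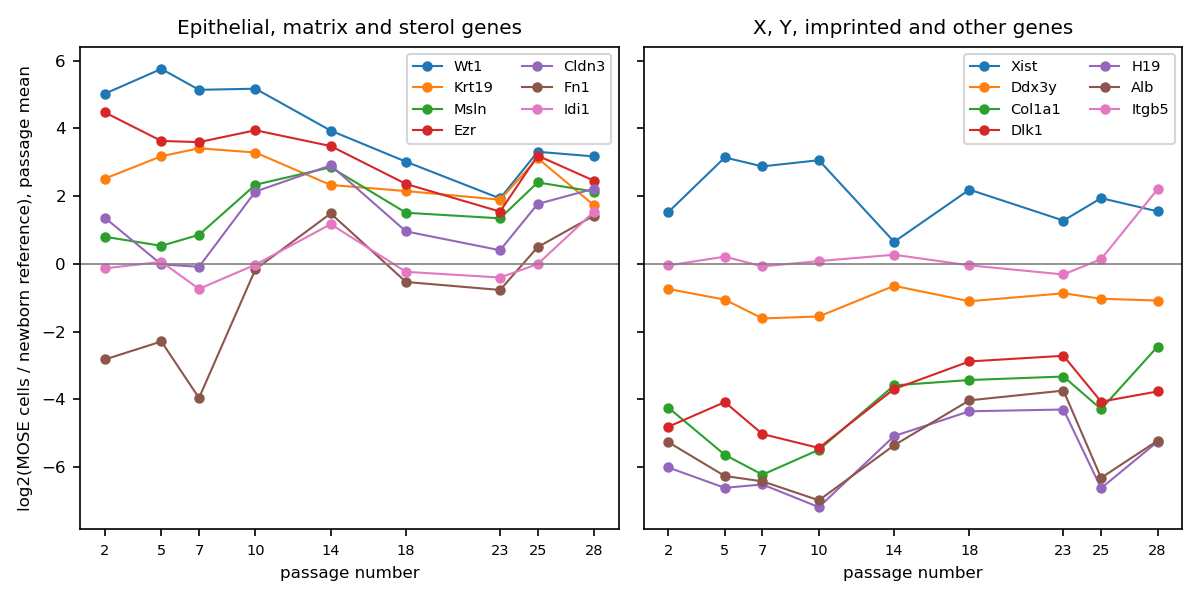
Log2 ratio of MOSE cells to the newborn reference (y axis, passage mean) at each of the 9 sampled passages (x axis, passage number) for 14 genes. Wt1, H19 and Xist keep their side of 0 at every passage, and the p28 value of Itgb5 comes from a spot at background.

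At p28, 43 of the 216 named genes lay outside the range of all 8 other passages, 25 above it and 18 below it (19.9%, against 23.0% of all 7389 genes). These ranges are of scaled values, and the scaling factors differed between passages. Idi1 was at 1.55 at p28, above the -0.74 to 1.17 of the others. Tpm2 was at -2.69 at p28, above their range of -5.54 to -2.97, and Col1a1 at -2.45 at p28, above -6.23 to -3.33. Mt2 was at -1.95 at p28, below their -0.45 to 2.63, and so was Ndrg2, a stress-responsive gene, at -1.51 at p28 against -0.45 to 1.80. The fit gave an adjusted p of 0.98 for each of these. Of the 18 ovarian surface and mesothelial markers, 6 were below the range of the other passages at p28 (Bnc1, Bnc2, Gas6, Gata4, Krt19 and Tgm2), 0 were above it and 12 were within it. That put 33.3% of the markers outside the range, against 23.0% of all genes. Of all 7389 genes, 699 were below their range and 1002 above it. Gata4 was at 1.35 at p28 against 2.08 to 3.89, and Bnc1 at 1.28 against 1.95 to 3.49. Msln at 2.13, Krt18 at 1.24 and Krt8 at 0.90 were above the mean of the other passages (1.58, 0.70 and 0.06). The median of the 18 markers, after scaling by factors that differed between arrays, was 1.07 at p28, against 1.58 at p25, 0.74 at p23 and 2.29 at p2.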

How the data were processed

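RNA of MOSE cells and of newborn mouse was hybridized together to 2-colour cDNA arrays, and per the labels each passage was 1 biological sample on dye-swapped arrays. The deposited scanner files hold GenePix foreground and background intensity per spot, and the deposited value table holds log2 ratios that the authors made by print-tip loess and scaling. Its dye-swapped columns carry the sign of the forward ones (correlation with the scanner ratios 0.988 to 0.999), 99.96% of its rows matched a spot and the p28 column medians were -0.017 to 0.0039. Here the main values came from the intensities: background was subtracted with a floor of 0.5, print-tip loess and scaling over all 35 arrays followed in limma 3.58.1 (R 4.3.3), and reverse arrays were turned. The scaling multiplied p28 ratios by 0.804 to 0.889, so the p28 log2 ratios printed are smaller than before scaling. It multiplied p2 ratios by 1.05 to 1.51, so those printed are larger.

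The 228 control spots were left out of the tests. The 4 p28 arrays were tested against 0 with lmFit and eBayes and a Benjamini-Hochberg adjusted p under 0.01, over all 15254 clones. The p28 mean was tested against the other 8 passage means at an adjusted p under 0.05. Of the named clones, 9157 had a current symbol, 855 were updated through RefSeq (GRCm38.p6) and 86 kept the file's name. The comparison script was tested on simulated data.

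Genes named in the text were the 25 highest and 25 lowest called genes with a current symbol, one sign on all 4 arrays and a clone above background in the brighter channel, all measured members of the ovarian surface, sex chromosome, erythroid and imprinted lists, the 4 largest changes of each other list, and the p28 genes the study names. Some members of the cholesterol list are counted but not reported here by name. Other members of the lists are named after their values were seen. The members and lists were chosen with earlier results of these data known. Alternatives covered the scaling, background, loess, dye term, replicate number, spread, filter, threshold, deposited table and each array left out.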

Additional observations from a re-analysis of the deposited data

Results flagged for a closer look

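Of 195 sets of 4 p28 arrays that were examined, 5 held 1 array that stood apart by Dixon's test, where chance alone gives about 1 set in 20. Csrnp3 was at -2.63 on r2, above the other arrays. Eif4a1, a translation initiation helicase, was at 0.60 on r2. Neb was at -2.99 on r1. Sqstm1 was at 1.27 on r2, below the other arrays, and the median of the 4 keratins was 1.02 on the same array.

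Itgb5 was called between p28 and the other 8 passages, at 2.17 on the log2 scale (limma adjusted p = 0.0122, with p28 as 1 value assumed to vary like the others). Its spot was at background in both channels and the difference came from the forward arrays.

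The 100 spots named EmptyWell, which are in no comparison, had a median signal of 515 units in the p28 cell channel, against 518 in the newborn channel, and the 128 spots named Empty were listed at 0.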

How the results depend on the processing

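Against 469 clones higher and 670 lower in p28 cells, one loess curve per array gave 307 higher, a dye term gave 806 higher, and a shared spread over all 35 arrays gave 799 higher. A log2 ratio of at least 1 as a further condition left 232 higher and 360 lower. Leaving out an array gave 279 to 350 higher and 374 to 570 lower, with 279 and 374 without d1, 302 and 415 without d2 and 279 higher without r1. Of 155 called named genes, 124 kept their call under all 13 alternatives. Calls lost without 1 array included those of Acat2 (r1), Alas2 and Manf (d1 or d2), Gnas (d2) and Sec61g (r1 or r2). Others were those given above and those of genes not described here. Bnc2, Gata4, Igf2r, Igfbp5 and Krt7 lost theirs in the fit of all 35 arrays, and the calls lost with one loess curve per array included that of Eif2s3y. The causes of these shifts were not tested. Of 40 list medians, 8 moved by more than 1 SD over the arrays with the deposited table and fewer under each other setting. Igf2 turned to 0.35 when poor spots were removed, since 1 clone was left. The call of Itgb5 against the other passages was lost with one loess curve per array and with the deposited table (0 clones each in limma, with 700 and 1236 at an unadjusted p under 0.05). Leaving out an array gave 1 to 4 clones, namely 2 without d1, 1 without d2, 4 without r1 and 4 without r2.

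With the replicate number as a block, 360 clones were higher and 527 lower. Deviations from the mean of the 4 arrays correlated at -0.501 and -0.515 for same-numbered arrays. They correlated at -0.474 and -0.494 for differently numbered arrays of opposite dye. Same-numbered arrays were thus no closer than these. Such deviations tend to be negative in any case, so the values alone cannot settle whether the numbers pair the arrays. The 4 arrays share 1 RNA preparation. Whether signal like that of the EmptyWell spots limits the lowest ratios was not tested.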

Other observations

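By chromosome, genes on chromosomes 11 and 17 had the highest medians at p28. The 613 measured genes on chromosome 11 had a median log2 ratio of 0.11, with 7.18% called higher and 4.08% lower, and array medians of 0.07, 0.07, 0.15 and 0.17. The same genes had a median of 0.11 at p23, 0.13 at p25 and -0.02 at p2. The 349 genes on chromosome 17 had a median of 0.13 at p28, against 0.15 at p25, 0.12 at p23 and -0.05 at p2, with 6.30% called higher and 2.87% lower. These values were noticed after the values were seen, and no test was made of them.

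Clones without a gene symbol made up 72 of the calls higher and 117 of the calls lower. The 23 clones described on the array as similar to SPARC, a matrix glycoprotein, had a median of -0.69 with 11 lower, while the 4 clones named Sparc had a median of 0.16 with 0 called. Why these clones differ was not tested.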
